A study of Mus musculus with 4 samples.

Results

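The integrins and tissue retention molecules *Itgae*, *Itga1*, *Itga4*, *Itgal*, *Itgb1*, *Itgb2*, *Itgb7*, *Cd44* and *Cd69* were taken by gene symbol from the count tables of hepatic CD4+ T cells. All 9 were found among the 32285 genes of the tables, and each had UMIs in each library. The cells came from livers of male mice fed CD, a choline-deficient high-fat diet with 60 kcal% fat and 0.1% methionine that induces steatohepatitis, for 8 weeks. The WT group was compared with the dKO group (*Nr4a1* fl/fl *Nr4a2* fl/fl *Cd4Cre*), in which Cre under *Cd4* control deletes floxed *Nr4a1* and *Nr4a2*, transcription factors induced by T cell receptor signals, in T cells. Each group was 1 library of sorted cells pooled from 2 mice that the files do not separate, so no test between genotypes was run. Exact 95% intervals stand in parentheses and cover counting error only.

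Integrins are surface receptors made of an α and a β subunit that hold a lymphocyte to matrix, endothelium or epithelium. The α subunit largely sets the ligand, and an α chain reaches the surface only with a β partner. CD69 binds the sphingosine-1-phosphate receptor S1PR1 and takes it off the surface, which keeps a cell from leaving a tissue, and CD44 is a hyaluronan receptor kept high on antigen-experienced T cells. Tissue-resident T cells are commonly recognised by CD69 with CD103, the product of *Itgae*, or with CD49a, the product of *Itga1*.

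The genes lie on 8 chromosomes of GRCm38, and positions are those of GENCODE M21. *Itgae* (ENSMUSG00000005947, chr11:73090583-73147446) encodes the αE chain, which pairs with the *Itgb7* product and binds E-cadherin. *Itga1* (ENSMUSG00000042284, chr13:114953096-115101964) encodes a collagen-binding chain that pairs with the *Itgb1* product. *Itga4* (ENSMUSG00000027009, chr2:79255426-79333123) encodes a chain that pairs with the *Itgb1* product to bind VCAM-1 or with the *Itgb7* product to bind MAdCAM-1. *Itgal* (ENSMUSG00000030830, chr7:127296260-127335138) and *Itgb2* (ENSMUSG00000000290, chr10:77530252-77565708) encode the chains of LFA-1, the receptor for ICAM-1. *Itgb1* (ENSMUSG00000025809, chr8:128685654-128733200) and *Itgb7* (ENSMUSG00000001281, chr15:102215995-102231944) encode the other β chains. *Cd44* is at chr2:102811141-102901665 (ENSMUSG00000005087) and *Cd69* at chr6:129267325-129275436 (ENSMUSG00000030156).

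The promoters of *Itga1*, *Itga4* and *Itgb1* are shown because these chains can form receptors together and yet their levels went different ways between the libraries. They are the 250 bases before the RefSeq start on GRCm38.p6, each 5′ to 3′ on the strand of the gene. The *Itga1* window is chr13:115101965-115102214 on the minus strand, the *Itga4* window chr2:79255176-79255425 and the *Itgb1* window chr8:128685404-128685653, the last 2 on the plus strand.
Itga1: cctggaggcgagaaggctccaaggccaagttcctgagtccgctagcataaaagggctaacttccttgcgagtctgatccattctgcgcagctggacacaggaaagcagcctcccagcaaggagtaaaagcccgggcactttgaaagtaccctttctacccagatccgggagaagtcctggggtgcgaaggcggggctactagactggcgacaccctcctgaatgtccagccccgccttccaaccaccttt
Itga4: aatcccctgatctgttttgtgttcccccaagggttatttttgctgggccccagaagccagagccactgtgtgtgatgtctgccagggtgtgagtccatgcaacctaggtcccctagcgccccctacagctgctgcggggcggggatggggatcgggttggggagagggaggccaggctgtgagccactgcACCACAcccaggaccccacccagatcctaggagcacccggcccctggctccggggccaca
Itgb1: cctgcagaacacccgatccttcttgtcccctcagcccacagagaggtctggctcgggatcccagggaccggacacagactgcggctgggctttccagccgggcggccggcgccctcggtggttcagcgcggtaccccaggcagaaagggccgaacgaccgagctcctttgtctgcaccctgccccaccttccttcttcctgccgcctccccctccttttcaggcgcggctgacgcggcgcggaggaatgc
Capitals mark a match to TGTGGT, the core bound by Runx factors, on either strand. The NR4A monomer element AAAGGTCA and the AP-1 element TGANTCA were also searched on both strands. Of 32851 promoter windows of the same length, 14.0% held the Runx letters, 1.34% the NR4A letters and 6.75% the AP-1 letters. *Itga4* had 1 Runx match, which reads ACCACA on the strand shown and starts 60 bases before the start site, and no window of these 3 genes held the other letters. Promoter sequences of *Cd44* and *Itgb7* held none of the 3 motifs, and *Itgae*, *Itgal*, *Itgb2* and *Cd69* had no entry in the promoter table.

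Cells were sorted into classes by UMIs of marker genes that are not members, and levels are counts per 1000000 UMIs of a class (CPM). After filtering, the libraries labelled WT and dKO held 10556 and 17462 cells with medians of 1679 and 1685 UMIs. Cycling cells were set aside first. Remaining T cells with at least 1 *Foxp3* UMI, called Foxp3+ T cells here, numbered 418 and 3109. Among all T cells, 6.76% labelled WT and 28.5% labelled dKO had a *Foxp3* UMI, against 0.952% and 5.49% of pDC-like cells and 2.10% and 10.8% of myeloid cells, which should lack it. After thinning to 1000 UMIs the shares were 4.08% and 19.8% of T cells, 0.60% and 1.93% of pDC-like cells and 2.17% and 3.42% of myeloid cells. Median depths before thinning were 1809 and 1407 UMIs in T cells, 1628 and 3042 in pDC-like cells and 1817 and 3598 in myeloid cells. The part of free RNA in the size of the Foxp3+ class was not tested, and 179 and 1283 of its cells had at least 2 *Foxp3* UMIs. In an alternative with doublets removed, the class held 364 and 2520 cells. T cells with *Ifng* UMIs and no *Il17a* or *Il17f* UMI numbered 1415 and 733, those with *Il17a* or *Il17f* alone 135 and 299, naive-like cells 1818 and 1057, cycling cells 591 and 475, and T cells that passed none of these gates, called other T cells, 2828 and 5880. Droplets with under 7% ribosomal protein UMIs numbered 324 and 378, pDC-like cells 1575 and 3895, myeloid cells 286 and 406 and ILC3-like cells 63 and 40. Cells with both cytokines (26 and 6), with markers of several types (160 and 293) or of no type (917 and 891) are not described further. *Cd4*, *Cd5*, *Cd28* and *Icos*, which the T cell gate did not use, were each at 252 CPM or more in T cells labelled WT and at 381 CPM or more in those labelled dKO, and *Cd8a* stood at 0.0603 and 0.288 CPM there. The labels and the counts of the targeted genes differ in direction. *Nr4a1* had 1067 CPM in Foxp3+ T cells of the library labelled WT and 2311 CPM in those labelled dKO, and *Nr4a2* had 179 and 448 CPM, where exons outside a deleted segment are counted too. *Cd4* itself, a gene of the sort, had 252 CPM in T cells labelled WT and 867 CPM in those labelled dKO. Of the cell barcodes, 245 occurred in each library.

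**Figure D1:**
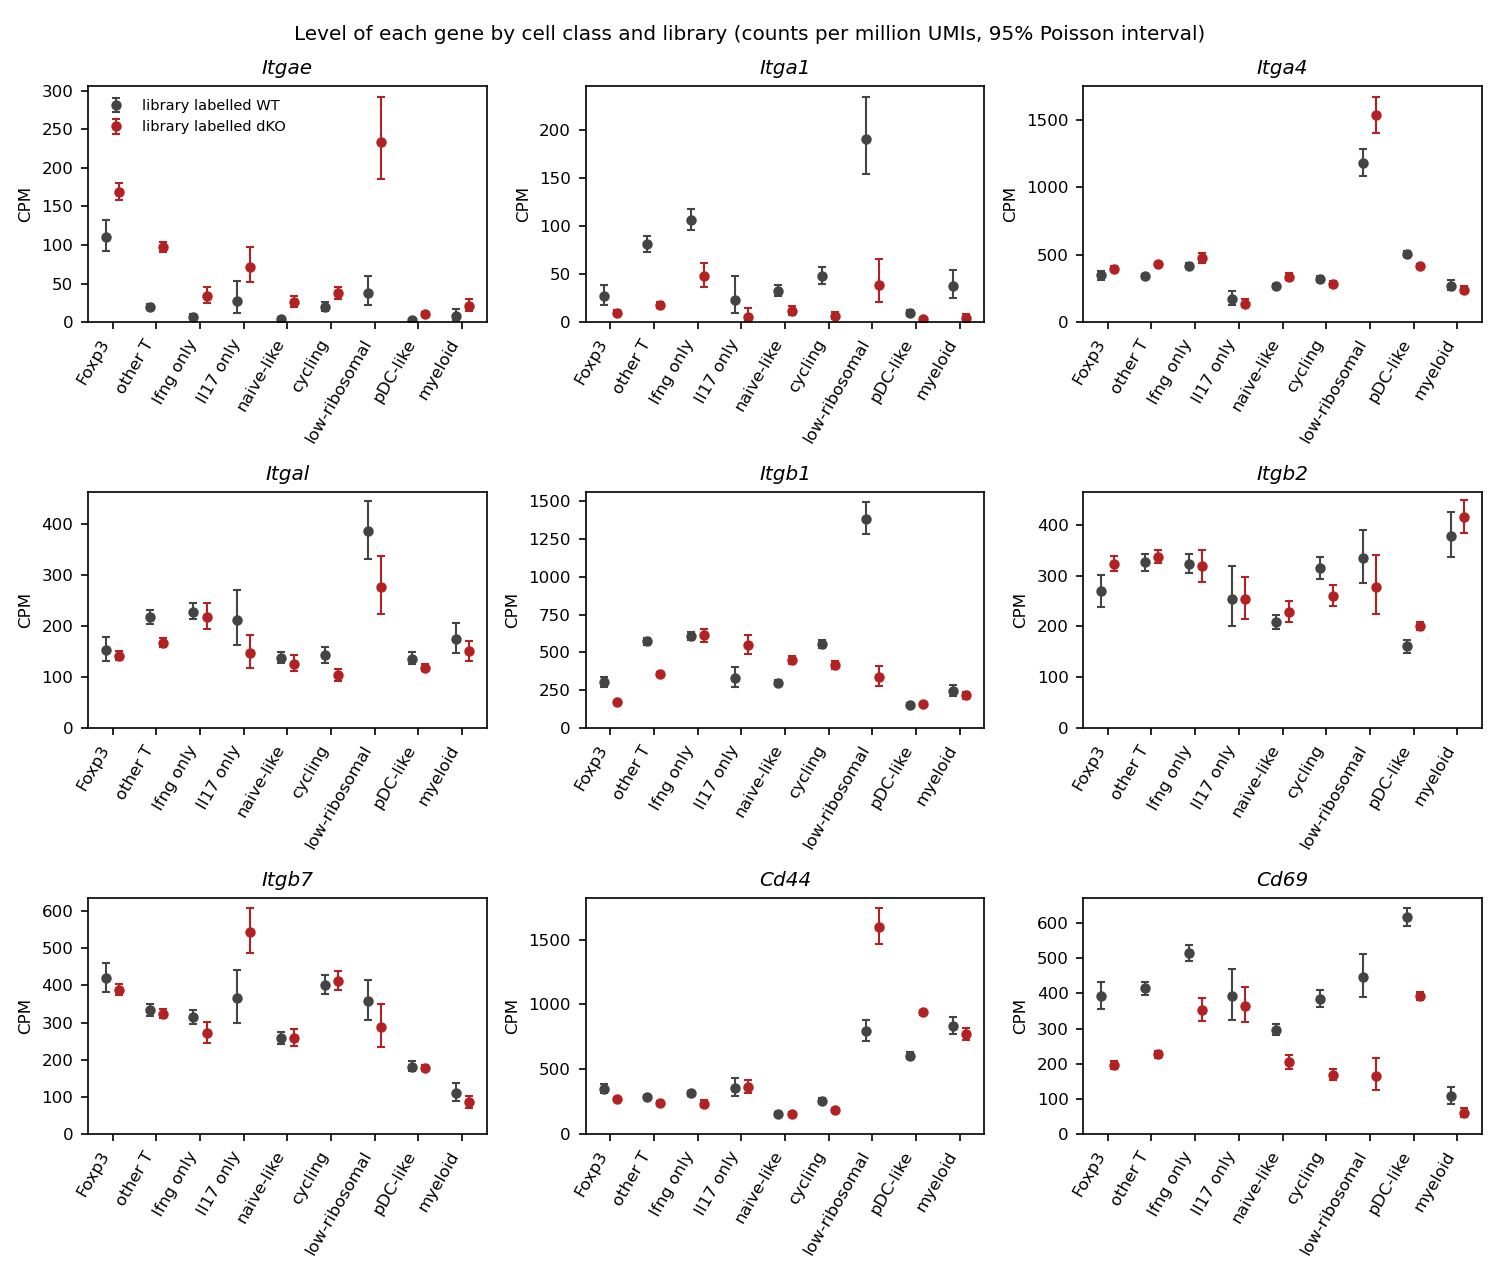
CPM of each of the 9 genes (vertical axes) in 9 cell classes (horizontal axes), with the library labelled WT in grey and the library labelled dKO in red, and exact 95% Poisson intervals as bars. *Itgae* is highest among T cell classes in Foxp3+ T cells, at 111 and 169 CPM. The points of *Itga1* and *Cd69* lie lower in the library labelled dKO in each class shown, with overlapping intervals of both genes in *Il17* cells.

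*Itgae* was highest among T cells in the Foxp3+ class of each library, and outside that class it was higher in the library labelled dKO. Foxp3+ T cells labelled WT had 111 CPM (92.2 to 132), from 123 UMIs. No other T cell class of the library labelled WT reached that level, with 26.8 CPM (11.6 to 52.8) in *Il17* cells, 19.2 in cycling cells, 18.9 in other T cells, 6.78 in *Ifng* cells and 4.47 in naive-like cells. Foxp3+ T cells labelled dKO had 169 CPM (159 to 180), from 1025 UMIs. In that library the order was other T cells at 97.3 CPM, *Il17* cells at 72.0, cycling cells at 37.7, *Ifng* cells at 33.6 and naive-like cells at 26.3. The intervals of other T cells (90.7 to 104) and *Il17* cells (51.9 to 97.3) overlap, and those of the last 3 overlap from 1 to the next. The part of free RNA or doublets in these values was not tested. The pDC-like cells, which should lack *Itgae*, had 2.35 CPM (1.07 to 4.46) and 10.8 CPM (9.11 to 12.8), and myeloid cells, a gate that can hold dendritic cells, some of which carry CD103, had 7.80 and 20.7 CPM. The levels of *Ifng* and naive-like cells of the library labelled WT were no higher than that of its myeloid cells, and the interval of naive-like cells labelled dKO (19.7 to 34.3) overlaps that of its myeloid cells (14.1 to 29.5).

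Within Foxp3+ T cells, the log2 ratio of *Itgae*, dKO over WT, was 0.61 (0.34 to 0.89). It depended on how the class was gated. Cells with at least 2 *Foxp3* UMIs, a limit added after the values were seen, had 155 CPM (123 to 193) labelled WT and 173 CPM (158 to 189) labelled dKO, a log2 ratio of 0.16 (-0.18 to 0.51) that spans 0. Cells with 1 *Foxp3* UMI had 70.7 CPM (50.8 to 96.0) and 166 CPM (152 to 181). The ratio was 0.37 with 1 cell per clonotype and 1.64 with a gate of 3 UMIs over *Foxp3*, *Ctla4*, *Ikzf2*, *Il2ra* and *Tnfrsf9*. That gate took in 1259 and 7051 cells and did not require a *Foxp3* UMI. After each cell was thinned to 1000 UMIs, 11.3% (8.28 to 15.0) of 371 cells labelled WT and 14.6% (13.3 to 16.1) of 2589 cells labelled dKO had an *Itgae* UMI. The intervals of those shares overlap. Thinned pDC-like cells had 0.0857% (0.0022 to 0.476) and 0.799% (0.543 to 1.13), and thinned myeloid cells 0.435% (0.011 to 2.40) and 2.11% (0.913 to 4.11), intervals that lie below those of the Foxp3+ T cells of the same library. Median depths before thinning were 2070 and 1570 UMIs in Foxp3+ T cells.

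Outside the Foxp3 gate the log2 ratio of *Itgae* was 2.36 (2.04 to 2.70) in other T cells, 2.31 in *Ifng* cells and 2.55 in naive-like cells. The intervals of these ratios lie above that of Foxp3+ T cells. In cycling cells the log2 ratio was 0.97 and in *Il17* cells 1.42, and both intervals overlap that of Foxp3+ T cells. The log2 ratio was also above 0 outside the T cells, at 2.21 (1.24 to 3.37) in pDC-like cells, which should lack *Itgae*, and 1.41 (0.13 to 2.96) in myeloid cells, at the lower levels given above. These classes of T cells also carried Treg transcripts in unequal amounts. *Ctla4* had 371 CPM in other T cells labelled WT and 1677 CPM in those labelled dKO, *Ikzf2* 169 and 825 CPM, and *Tnfrsf9* 116 and 796 CPM. Other T cells were therefore divided by whether they held a UMI of the 5 Treg genes, a division added after the values were seen. It was not matched for depth, with medians of 1618 and 1240.5 UMIs in cells with such a UMI and 1294.5 and 1168 in those without. Cells with such a UMI made up 41.6% and 81.6% of other T cells and 72.6% and 78.3% of *Il17* cells. Whether they were Tregs was not tested. Among the 1652 and 1080 cells without such a UMI, *Itgae* had 12.1 CPM (8.13 to 17.4) labelled WT and 11.6 CPM (6.66 to 18.9) labelled dKO, a log2 ratio of -0.060 (-1.04 to 0.87). Among the 1176 and 4800 cells with such a UMI, it had 26.3 and 114 CPM, a log2 ratio of 2.12 (1.73 to 2.53). *Ifng* cells without a Treg gene UMI held 9 and 1 *Itgae* UMIs, a log2 ratio of -1.09 (-6.55 to 1.76), against 2.65 (1.77 to 3.61) in those with one. Naive-like cells without such a UMI held 5 and 3 *Itgae* UMIs, a log2 ratio of 0.84 (-1.85 to 3.20), whose interval contains the 2.44 (1.59 to 3.38) of those with one. At this depth a difference without Treg transcripts was not detectable in these 3 classes, and in naive-like cells one as large as with them is not excluded by the interval. *Il17* cells were the exception, with 0 UMIs in 37 cells labelled WT and 71.3 CPM (30.8 to 140) in 65 cells labelled dKO, all without a Treg gene UMI. The second value rests on 8 UMIs, and its interval overlaps that of the library labelled WT (0 to 50.2). The lower limit of the log2 ratio was 0.16.

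**Figure D2:**
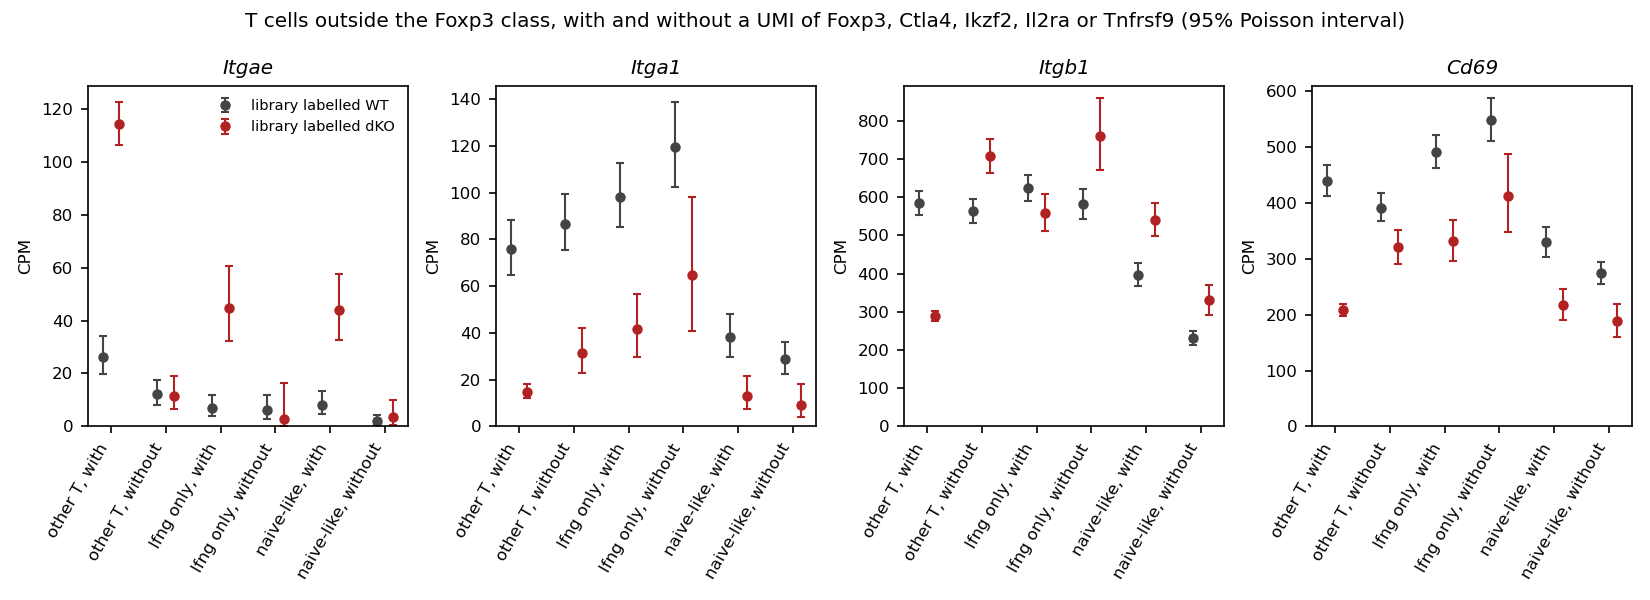
CPM (vertical axes) of *Itgae*, *Itga1*, *Itgb1* and *Cd69* in other T, *Ifng* only and naive-like cells with and without a UMI of any of 5 Treg genes (horizontal axes), by library, with exact 95% Poisson intervals. *Itgae* stands at 12.1 and 11.6 CPM in other T cells without Treg gene UMIs and at 26.3 and 114 CPM in those with them, whereas *Itga1* is lower in the library labelled dKO in each division shown.

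Foxp3+ T cells of the library labelled dKO with an *Itgae* UMI differed in several genes from those without, at equal depth. The 379 thinned cells with *Itgae* had 472 CPM of *Itgb7*, the partner chain, against 380 CPM in the 2210 cells without. *Itgb1*, which does not pair with αE, had 87.1 CPM in the cells with *Itgae* and 152 CPM in those without, a log2 ratio of -0.80. *Penk*, the gene of the opioid precursor proenkephalin, had 243 against 95.9 CPM, a log2 ratio of 1.34 (0.97 to 1.70). *Il2ra*, the IL-2 receptor α chain, had 269 against 188 CPM. *Tcf7*, a transcription factor of naive and memory T cells, had 15.8 against 41.6 CPM, while *Foxp3* had 960 and 923 CPM. In the library labelled WT only 42 thinned Foxp3+ T cells held an *Itgae* UMI, and their *Itgb7* stood at 714 CPM against 389 CPM. *Itga4* had 167 against 380 CPM in that library, a log2 ratio of -1.19 (-2.53 to -0.10), but 433 against 396 CPM in the library labelled dKO, a log2 ratio of 0.13 (-0.12 to 0.37). The intervals of *Itgb1*, at 214 against 298 CPM, and of *Tcf7*, at 95.2 against 149 CPM, span 0 in the library labelled WT.

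*Itga1* followed another order. In the library labelled WT it was highest among T cells in *Ifng* cells, at 107 CPM (96.3 to 118), followed by other T cells at 81.4 CPM (73.3 to 90.1), cycling cells at 48.1 CPM and naive-like cells at 32.6 CPM. Foxp3+ T cells had 27.1 CPM (18.3 to 38.6) and *Il17* cells 23.5 CPM (9.44 to 48.4). *Ifng* cells again led in the library labelled dKO, at 47.7 CPM (36.5 to 61.3), other T cells had 17.6 CPM and Foxp3+ T cells 9.57 CPM. The myeloid cells of the library labelled WT had 37.7 CPM (25.2 to 54.1), and 1.89% of its thinned Foxp3+ T cells held an *Itga1* UMI against 4.78% of thinned myeloid cells and 1.11% of thinned pDC-like cells. *Itga1* in Foxp3+ T cells of that library overlaps the level of its myeloid cells and lies above that of its pDC-like cells, at 9.13 CPM (6.36 to 12.7).

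The log2 ratio of *Itga1*, dKO over WT, was -1.16 (-1.58 to -0.77) in *Ifng* cells and -2.21 (-2.50 to -1.93) in other T cells. It was below 0 with its interval in all 6 T cell classes, and in 9 of 10 classes when ILC3-like, low-ribosomal, pDC-like and myeloid cells were added. The exception was the ILC3-like class, with 2 UMIs and 0 UMIs. *Il17* cells held 7 and 3 *Itga1* UMIs, and their interval ran from -4.77 to -0.06. Neither *Il17* nor pDC-like cells passed the filter on low values for this gene. The log2 ratio was -1.47 (-1.98 to -0.99) in other T cells without Treg gene UMIs, with 86.6 and 31.3 CPM. The level in pDC-like cells moved too, at 9.13 and 2.99 CPM, and the part of free RNA in the difference was not tested. In 150 thinned other T cells of the library labelled WT that held an *Itga1* UMI, *Cd69* stood at 667 CPM against 379 CPM in the 2074 without, and *Itgb1* at 760 against 548 CPM. The heat shock genes *Hspa1a*, at 880 against 346 CPM, and *Hsph1*, at 707 against 314 CPM, moved with them, and *Hspa1a* had the highest ratio among genes with at least 200 CPM. Their part in these differences was not tested. In the *Ifng* cells of that library, 121 with *Itga1* and 1188 without, *Cd69* had 653 against 545 CPM, a log2 ratio of 0.26 (-0.09 to 0.60), and *Itgb1* 545 against 620 CPM, a log2 ratio of -0.19 (-0.57 to 0.18), and both intervals span 0. Among the other T cells *Tnfrsf4*, which encodes OX40, had 60.0 CPM with *Itga1* and 346 CPM without.

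*Itgb1*, the β chain for *Itga1* and *Itga4*, was lower in Foxp3+ than in other T cells of each library. Foxp3+ T cells labelled WT had 302 CPM (271 to 336) and those labelled dKO 169 CPM (159 to 180). *Ifng* cells had 607 and 612 CPM, whose intervals overlap. The direction between libraries differed by class. The log2 ratio, dKO over WT, was -0.84 (-1.02 to -0.66) in Foxp3+ T cells, -0.68 in other T cells and -0.41 in cycling cells, against 0.58 (0.46 to 0.70) in naive-like cells and 0.72 (0.40 to 1.06) in *Il17* cells. Without Treg gene UMIs, other T cells gave 0.33 (0.21 to 0.45), with 563 CPM labelled WT and 707 CPM labelled dKO. It was also above 0 with its interval in *Ifng*, *Il17*, naive-like and cycling cells without Treg gene UMIs. Other T cells with a Treg gene UMI had 584 and 290 CPM. Among cells with such a UMI the log2 ratio was also below 0 in cycling cells, at -0.45, and in *Ifng* cells, at -0.16, but above 0 in naive-like cells, at 0.45, and in *Il17* cells, at 0.52.

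**Figure D3:**
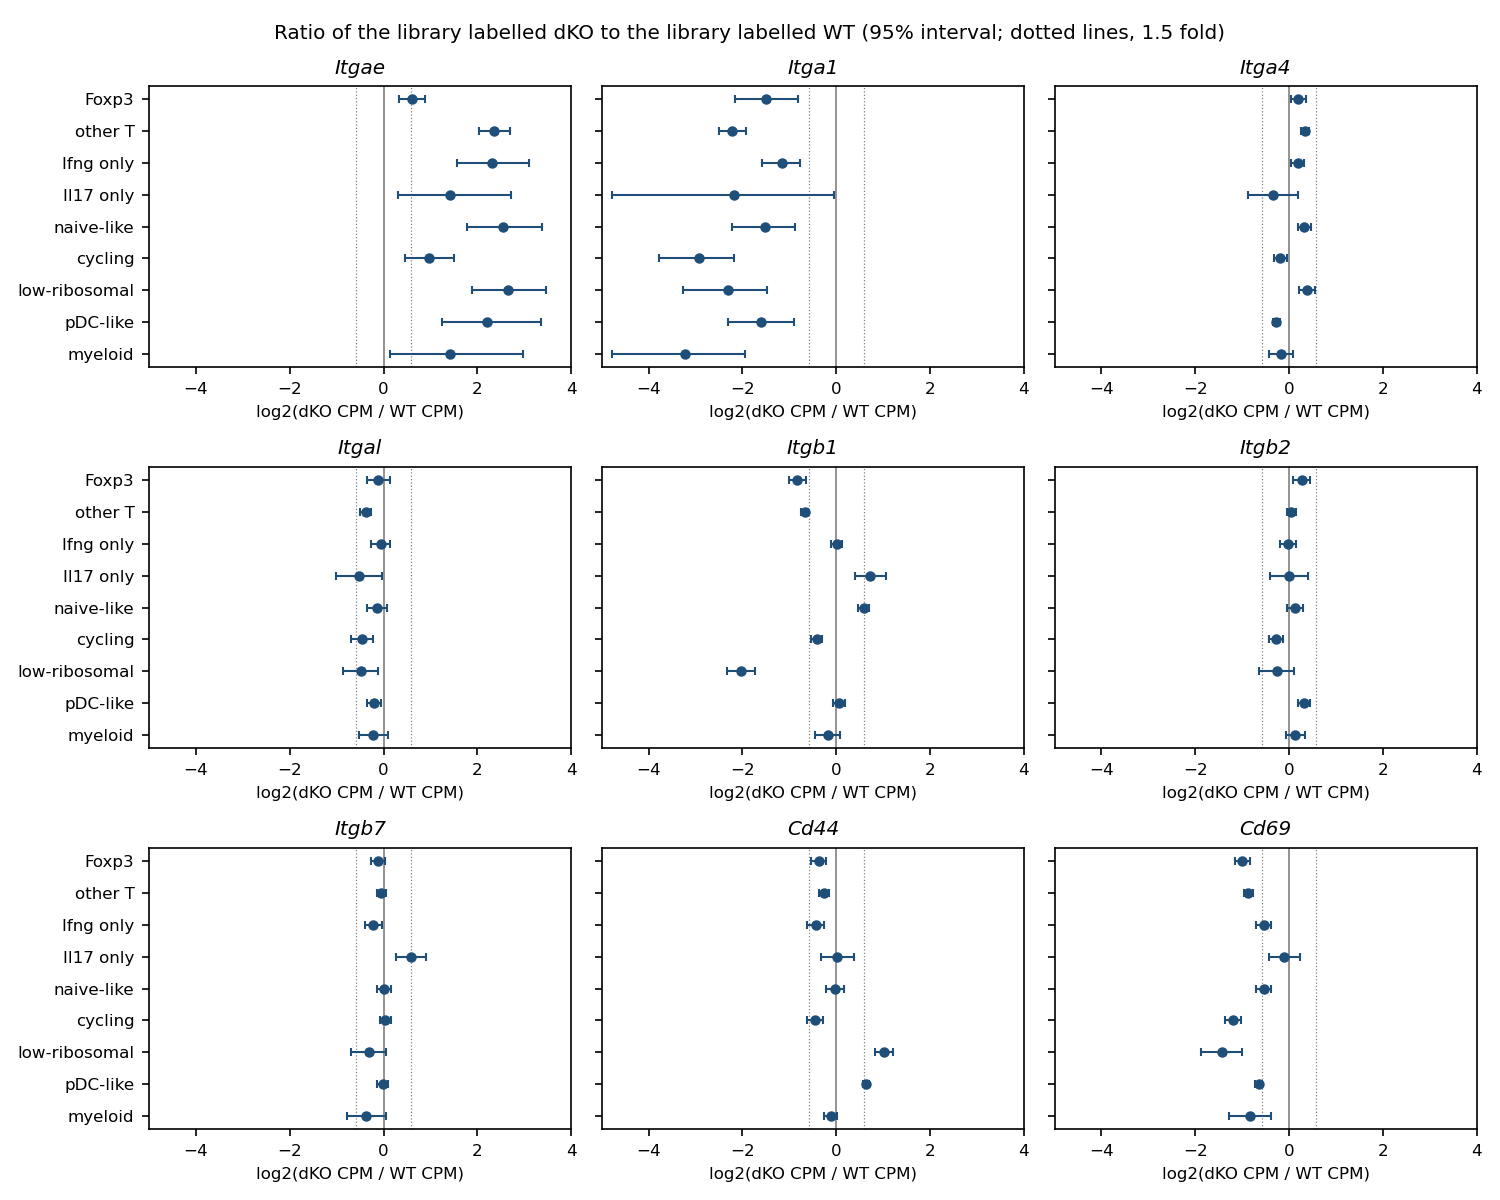
Log2 ratio of CPM, dKO over WT (horizontal axes), of each of the 9 genes in 9 cell classes (vertical axes), with exact conditional binomial 95% intervals and dotted lines at 1.5 fold. *Itgae* lies right of 0 and *Itga1* left of 0 in each class, while *Itgb1* runs from -2.02 in low-ribosomal droplets to 0.72 in *Il17* cells.

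The LFA-1 chains and the α4 and β7 chains varied less than *Itgb1* between the libraries within T cell classes. Their log2 ratios, dKO over WT, lay from -0.52 to 0.58 in the 6 T cell classes, against -0.84 to 0.72 for *Itgb1*. *Itga4* had 346 and 397 CPM in Foxp3+ T cells, 342 and 434 CPM in other T cells and 419 and 476 CPM in *Ifng* cells, always in the order WT, dKO. *Il17* cells had the lowest *Itga4* of the T cell classes in each library, at 174 CPM (130 to 229) and 137 CPM (109 to 171). *Itga4* remained higher in the library labelled dKO in other T cells without Treg gene UMIs, at 309 and 451 CPM. *Itgb7* had 420 and 389 CPM in Foxp3+ T cells and 334 and 324 CPM in other T cells, and the intervals of each of these ratios span 0. *Il17* cells had 365 CPM (300 to 441) labelled WT and 545 CPM (487 to 608) labelled dKO, the highest *Itgb7* level of any class shown. *Itgal* had 153 and 142 CPM in Foxp3+ T cells and 218 and 167 CPM in other T cells. *Itgb2* had 269 and 324 CPM in Foxp3+ T cells and 326 and 337 CPM in other T cells, and was highest in myeloid cells, at 378 and 416 CPM. Its myeloid interval in the library labelled WT (336 to 424) overlaps those of low-ribosomal droplets (285 to 391) and other T cells (310 to 343), among others.

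Low-ribosomal droplets stood apart in several members. *Itga4* had 1181 and 1535 CPM there and *Cd44* 792 and 1600 CPM, each above every T cell class of its library. *Itgb1* had 1383 CPM labelled WT and 341 CPM labelled dKO. *Itgae* had 37.4 and 234 CPM, and *Ctla4* 532 and 2254 CPM in the same droplets. Neutrophil markers summed to 14.6 and 1022 CPM in them, and their part in these differences was not tested.

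Subunit RNAs were then counted in the same cell, at 1000 UMIs per cell. *Itgae* and *Itgb7* occurred together in 5.12% (3.11 to 7.88) of Foxp3+ T cells labelled WT and 5.29% (4.46 to 6.23) of those labelled dKO. The pair was found in 0.585% and 2.50% of other T cells. *Itga1* and *Itgb1* occurred together in 3.19% (2.50 to 4.01) of other T cells labelled WT and 0.654% (0.435 to 0.944) of those labelled dKO. Of the Foxp3+ T cells labelled dKO, 1 of 2589 held this pair. *Itga4* and *Itgb1* were found together in 8.36% (5.75 to 11.7) and 3.55% (2.87 to 4.34) of Foxp3+ T cells, while *Itga4* and *Itgb7* were found in 7.28% and 8.73%. Among Foxp3+ T cells labelled dKO, 11.4% of cells with *Itga4* and 12.2% of cells without it held *Itgb1*. In *Ifng* cells labelled WT, 49.5% of cells with *Itga4* and 37.1% of cells without it did. *Itgal* and *Itgb2* occurred together in 2.70% and 3.55% of Foxp3+ T cells, whose intervals overlap.

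**Figure D4:**
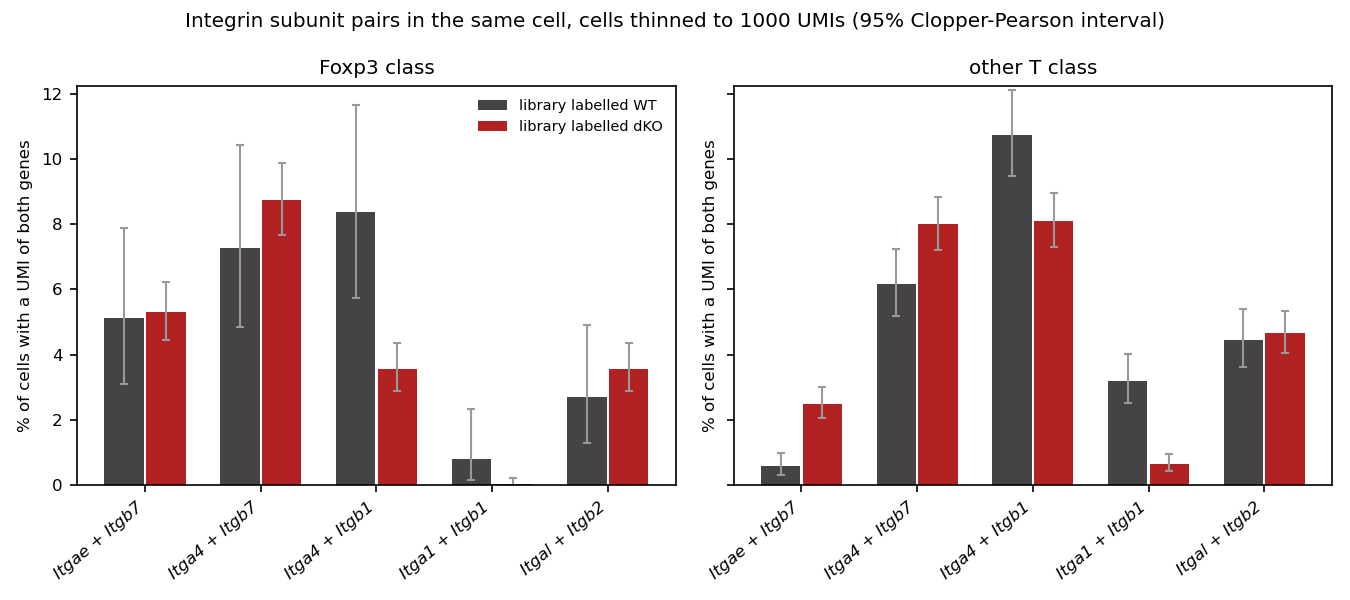
Percent of cells with a UMI of both chains (vertical axes) for 5 integrin pairs (horizontal axes), in Foxp3+ T cells and in other T cells thinned to 1000 UMIs, by library, with Clopper-Pearson 95% intervals. In Foxp3+ T cells the *Itga4* and *Itgb1* pair stands at 8.36% and 3.55%, and in other T cells the *Itga1* and *Itgb1* pair stands at 3.19% and 0.654%.

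*Cd69* was lower in the library labelled dKO in nearly all classes. Foxp3+ T cells had 392 CPM (356 to 431) labelled WT and 197 CPM (186 to 209) labelled dKO, a log2 ratio of -0.99 (-1.15 to -0.83). Other T cells had 414 and 227 CPM, cycling cells 385 and 168 CPM and *Ifng* cells 514 and 353 CPM. The exception among T cells was the *Il17* class, with 392 and 365 CPM, a log2 ratio of -0.10 (-0.44 to 0.23). Outside the T cells, pDC-like cells had 616 and 393 CPM and myeloid cells 108 and 60.9 CPM. The part of free RNA in these differences was not tested. The log2 ratio in other T cells was -0.29 (-0.46 to -0.12) without Treg gene UMIs and -1.08 (-1.19 to -0.96) with them.

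*Cd44* had 348 and 269 CPM in Foxp3+ T cells, a log2 ratio of -0.37 (-0.54 to -0.21), 289 and 241 CPM in other T cells and 158 and 156 CPM in naive-like cells, the lowest of the classes. It was higher than in any T cell class in pDC-like cells, at 606 and 938 CPM, and in myeloid cells, at 837 and 769 CPM. ILC3-like cells had 327 and 301 CPM, within the range of the T cell classes. Cells with a UMI of both *Cd44* and *Cd69* were counted at 1000 UMIs. They made up 8.09% (5.52 to 11.3) of Foxp3+ T cells labelled WT and 3.94% (3.22 to 4.76) of those labelled dKO, and 6.25% (5.28 to 7.34) and 3.67% (3.12 to 4.27) of other T cells. The share was lower in the library labelled dKO in these 2 classes also at 500 UMIs, at 2000 UMIs and without thinning, where Foxp3+ T cells gave 28.2% and 10.8%. *Ifng* cells had 10.5% (8.86 to 12.3) and 5.91% (4.20 to 8.06) at 1000 UMIs. The intervals overlap in *Il17* cells, at 10.3% and 10.0%, in cycling cells, at 5.52% and 4.02%, in naive-like cells, at 3.15% and 3.61%, in pDC-like cells, at 16.2% and 16.6%, and in myeloid cells, at 1.74% and 3.95%. At 2000 UMIs the shares were 17.1% (13.7 to 21.1) and 8.37% (5.99 to 11.3) in cycling cells, 10.1% and 7.41% in naive-like cells, 43.6% (39.8 to 47.4) and 35.2% (33.7 to 36.8) in pDC-like cells and 11.2% and 5.92% in myeloid cells. Without thinning, naive-like cells had 13.1% (11.6 to 14.8) and 7.95% (6.39 to 9.74), but pDC-like cells 32.9% and 49.0%. The order of the libraries in naive-like, pDC-like and myeloid cells therefore depended on the depth, and no direction is read from them.

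Counts past 1.5 fold place the members against all genes. Between the libraries, 1 member was higher and 3 were lower over all cells, where 9.92% of 6664 genes were higher and 7.55% lower. The same numbers held in Foxp3+ T cells, against 9.67% higher and 9.9% lower among 6543 genes, and in other T cells, against 9.02% higher and 7.31% lower among 6387 genes. In each of these comparisons *Itgae* was the higher member and *Itga1*, *Itgb1* and *Cd69* were the lower ones. The members' median log2 ratio was -0.07, -0.11 and -0.26 and that of all genes 0.01, 0.01 and 0.02. Without Treg gene UMIs, 1 member, *Itga1*, was lower past 1.5 fold in other T cells and none was higher, where 5% of 6239 genes were higher and 7.52% lower. Between Foxp3+ and other T cells, *Itgae* was higher and *Itga1* and *Itgb1* were lower in the library labelled WT, where 8.88% of 6454 genes were higher and 4.88% lower. In the library labelled dKO *Itgae* was higher and *Itgb1* lower, where 1.16% of 6290 genes were higher and 1.35% lower, and *Itga1* did not pass the filter of 20 CPM.

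Class mix and class level contributed differently to the whole-library values. Over all cells *Itgae* had 15.3 CPM labelled WT and 64.8 CPM labelled dKO. The class levels of dKO at the class mix of WT gave 53.4 CPM, and the class levels of WT at the class mix of dKO gave 26.1 CPM. A different mix of cells within a class counts as class level here. A Treg gene UMI was held by 41.6% of other T cells labelled WT and 81.6% of those labelled dKO. For *Itga1* the values were 55.5 and 10.1 CPM over all cells and 16.0 CPM for the class levels of dKO at the mix of WT. *Itgb1* had 430 and 274 CPM over all cells, but the class levels of dKO at the mix of WT gave 376 CPM. *Cd44* had 347 and 517 CPM over all cells and 388 CPM with the mix held, while the class levels of WT at the mix of dKO gave 424 CPM. The pDC-like cells took 16.4% of UMIs labelled WT and 33.7% of those labelled dKO. *Cd69* had 421 and 276 CPM, and 260 CPM with the mix held.

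**Figure D5:**
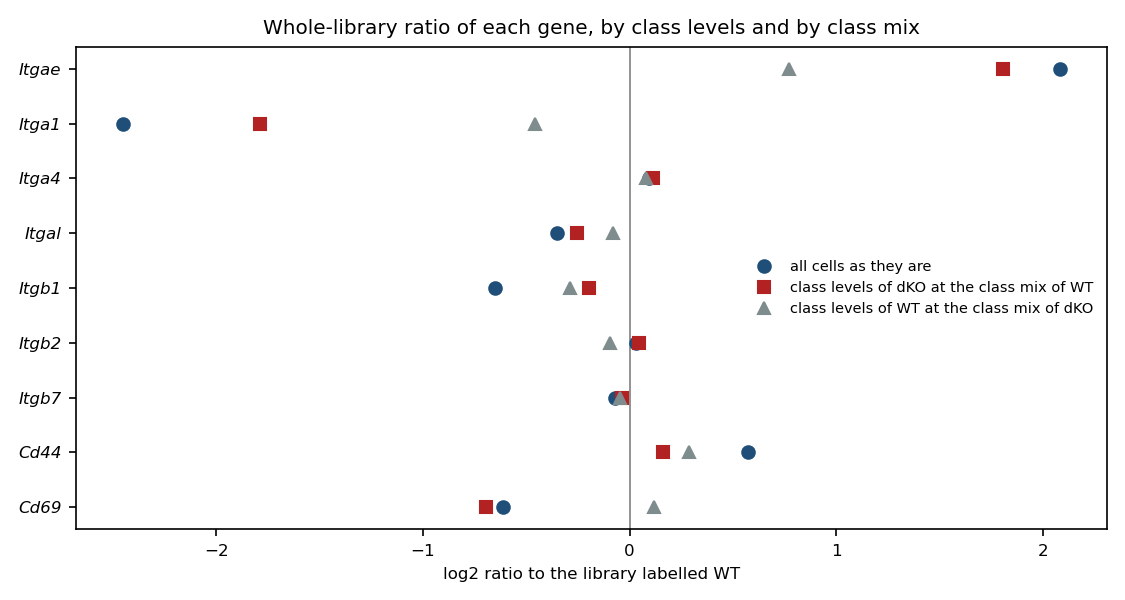
Log2 ratio to the library labelled WT (horizontal axis) for each of the 9 genes (vertical axis), over all cells as they are, with the class mix of WT held, and with the class levels of WT held. For *Itgae* the 3 ratios are 2.08, 1.81 and 0.77, and for *Cd44* they are 0.57, 0.16 and 0.29.

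T cell receptor clones were matched to the cells by barcode, and 30.7% of Foxp3+ T cells labelled dKO had a TRB contig. Clones were set by clonotype, which does not require a TRB contig, and 1905 of these 3109 cells had no clonotype. In clones of 1 cell, of 2 to 9 cells and of 10 or more cells, Foxp3+ T cells labelled dKO had 161, 160 and 189 CPM of *Itgae*, whose intervals overlap. *Itgb1* had 218 CPM (193 to 245), 182 CPM (150 to 218) and 88.2 CPM (68.1 to 112) in the same order. *Cd69* had 200, 182 and 123 CPM (99.4 to 152). The largest clone gave 146 of the 372 cells in the last group, and without it *Itgb1* had 87.2 CPM and *Cd69* 97.8 CPM in the 226 cells of the remaining 25 clones. In the library labelled WT *Itgb1* had 347 CPM (296 to 405) in 166 Foxp3+ T cells of clones of 1 cell, 418 CPM (295 to 577) in 29 cells of clones of 2 to 9 and 562 CPM (321 to 913) in 10 cells of larger clones, and the intervals overlap. The largest clone of the library labelled WT, 91 T cells, had 19.3 CPM of *Itgae* and 868 CPM of *Itgb1*, and that of the library labelled dKO, 411 T cells, had 151 and 114 CPM. T cells with the invariant NKT receptor, 53 and 56 cells, had 76.2 and 53.2 CPM of *Itga1*, with overlapping intervals.

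Other genes of the pathway were counted from lists. Of 14 other α chains 2 passed the filter in Foxp3+ T cells, where *Itga6*, a laminin receptor chain, was lower past 1.5 fold and *Itgav*, which pairs with the *Itgb8* product to activate TGF-β, had 658 and 969 CPM. Of 6 other β chains 2 passed the filter there. *Itgb8* was higher, at 33.4 and 132 CPM in Foxp3+ T cells and 6.09 and 94.5 CPM in other T cells, and *Itgb3*, which pairs with the *Itgav* product, was lower, at 75.8 and 39.4 CPM in Foxp3+ T cells. *Itgav* was higher past 1.5 fold in other T cells, at 181 and 681 CPM. Of 14 genes that activate integrins 13 were tested in Foxp3+ T cells, and *Skap1*, an adaptor that links the T cell receptor to LFA-1, was the 1 past 1.5 fold, with 811 and 422 CPM. None of the 13 was higher past 1.5 fold. Among all genes tested in Foxp3+ T cells 9.67% were higher and 9.9% lower, and the counts of the lists below are to be read beside those shares.

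Of the genes of tissue exit and homing, *S1pr1*, *Klf2*, *Klf3* and *Ccr7* were lower past 1.5 fold in Foxp3+ T cells labelled dKO. *S1pr1*, the exit receptor that CD69 takes off the surface, had 125 and 43.4 CPM, *Klf2*, which drives it, 690 and 369 CPM, *Klf3* 86.6 and 32.5 CPM and *Ccr7*, a chemokine receptor, 152 and 63.4 CPM. *S1pr1* was past 1.5 fold in other T cells too, at 118 and 77.5 CPM, while *Klf2* had 655 and 499 CPM and *Klf3* 80.7 and 57.7 CPM. Of 14 genes linked to tissue residence 13 were tested in Foxp3+ T cells, with 3 higher and 3 lower. *Cxcr3*, *Prdm1* and *Bhlhe40* were higher, *Cxcr3* at 129 and 238 CPM, and *Ahr*, *Tgfbr2* and *Ski* were lower, *Tgfbr2*, a TGF-β receptor chain, at 205 and 128 CPM. In other T cells all 14 were tested, where *Prdm1*, *Tgfbr1* and *Smad7* were higher and *Zfp683*, *Ahr*, *Tgfbr2* and *Ski* were lower, against 9.02% higher and 7.31% lower among all genes. *Zfp683*, which encodes the residency factor Hobit, had 49.0 and 8.29 CPM there. Of 11 early activation genes tested in Foxp3+ T cells, *Nr4a1* and *Nr4a2* were higher and *Fosb* and *Ier2* were lower past 1.5 fold.

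The genes with the pattern most like each member were found over 18 points, 9 classes in each of the libraries, which share depth and free RNA. By Pearson's r of log2(CPM + 10) these were *Mmd* (0.93) and *Neb* (0.92) for *Itgae*, *Chn2* (0.94) and *Epsti1* (0.93) for *Itga1*, and *Stk17b* (0.88) and *Tagap* (0.83) for *Cd69*. For *Itgb1* they were *Kcnab2* (0.86) and *Tor1aip2* (0.86), for *Itga4* *Nsmaf* (0.94) and *Prr14l* (0.93), and for *Itgal* *Sorl1* (0.94) and *Rbpj* (0.90). *Itgb2* was most like *Metrnl* (0.95) and *Myo1f* (0.87), *Itgb7* most like *Capn1* (0.93) and *Arl2bp* (0.91), and *Cd44* most like *Chd9* (0.95) and *Mef2a* (0.94). Among the members themselves the highest r was 0.81, between *Itga1* and *Itgal*. *Itga1* and *Itgb1*, which pair, gave 0.72, *Itgae* and *Itgb7* gave 0.48 and *Itga4* and *Itgb7* gave -0.012.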

How the data were processed

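Cells were captured with a 10x 5′ kit, and the authors deposited UMI counts per gene and cell from Cell Ranger 7.0.1 on mm10, not normalized, with 1 table per library. The deposited receptor tables give contig UMI counts and clonotypes. Cells with over 200 genes and under 5% mitochondrial UMIs were kept, leaving 23437516 and 37794986 UMIs. Classes were gated by UMI sums over marker genes (T cells at 2, pDC-like and myeloid cells at 3). The members and lists were chosen with earlier results of these data known. CPM was computed from summed counts. Ratios past 1.5 fold were counted over genes that reached 20 CPM in a group and 20 UMIs over both groups. Intervals are exact (Poisson, conditional binomial, Clopper-Pearson) at 95%. For shares, cells were thinned to 1000 UMIs, which left out 1929 and 3071 shallower cells. All members were named, with the 2 most similar genes of each over genes of at least 50 CPM, and up to 5 genes per list and direction. Genes compared between cells with and without a member's UMI were chosen after their values were seen. Doublets stayed in the main values. In an alternative, 1001 cells labelled WT and 2489 labelled dKO were removed as doublets. Scrublet in scanpy marked 891 and 2439 by top scores at 0.8% per 1000 cells, and 155 and 87 cells held 2 or more TRB contigs. The computation was tested on simulated data. Python 3.11.15, numpy 2.4.6, scipy 1.17.1, pandas 2.3.3 and edgeR 4.0.16 (TMM factors only) were used. A gene of the tissue exit list is not reported here.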

Additional observations from a re-analysis of the deposited data

Results flagged for a closer look

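With 1 library per genotype no group was large enough to look for outlying samples. Effects of opposite sign between T cell classes were flagged where the intervals of each lay on different sides of 0, and the differences themselves were not tested. The log2 ratio of *Itgb1*, dKO over WT, was 0.72 in *Il17* cells and -0.84 in Foxp3+ T cells. That of *Itgb7* was 0.58 in *Il17* cells and -0.21 in *Ifng* cells. That of *Itga4* was 0.34 in other T cells and -0.18 in cycling cells, and that of *Itgb2* was 0.27 in Foxp3+ T cells and -0.27 in cycling cells.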

How the results depend on the processing

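Of 558 log2 ratios of the 9 genes under the alternatives, 460 stayed within the interval of the reported value. Of the 459 whose reported interval lies on 1 side of 0, 451 kept their sign, and of the 99 whose reported interval spans 0, 14 changed sign. The 8 of the first kind that changed sign were these. Without pDC-like, myeloid and mixed cells, an alternative added after seeing the data, the ratio over all cells was -0.079 for *Cd44* and 0.097 for *Itgb7*. In other T cells without a UMI of 5 Treg genes, also added then, it was -0.060 for *Itgae* and 0.33 for *Itgb1*. With 1 cell per clonotype it was 0.084 for *Itgb1* and 0.21 for *Itgb7* over the 2557 and 2935 cells kept of all cells. That alternative also leaves out every cell without a clonotype. The mean of each cell's CPM gave 0.046 for *Itgb7* over all cells, and a Foxp3 gate of 3 UMIs over 5 genes gave -0.016 for *Itgb7* in Foxp3+ over other T cells labelled WT. The count of genes past the threshold between libraries, 4 in each comparison, became 2 over all cells, 1 in Foxp3+ T cells and 2 in other T cells at a fold of 2, where 5.9%, 6.51% and 6.42% of all genes passed. It became 2 in Foxp3+ T cells with 1 cell per clonotype (26.5% of all genes passed), 2 over all cells by the mean of each cell's CPM (13.8%), 2 in other T cells with the gate over 5 genes (10.8%), and 1 in other T cells without Treg gene UMIs (12.5%). Between Foxp3+ and other T cells labelled dKO, the count of 2 became 1 at a fold of 2 (0.62%) and 4 without Treg gene UMIs (21.5%). With at least 2 *Foxp3* UMIs, also added after seeing the data, the count in Foxp3+ T cells became 3 (25.9%), without *Itgae*. The count over all cells became 5 with doublets removed (17.9%) and with at least 1000 UMIs per cell (18.9%). With doublets removed it stayed at 4 in Foxp3+ T cells (23%) and in other T cells (16.7%). At 1000 UMIs or more per cell it became 3 in Foxp3+ T cells (20.2%). Among T cells with a TRB contig it became 3 in Foxp3+ T cells (27.5%) and in other T cells (18%). Between Foxp3+ and other T cells labelled WT, the count of 3 became 2 at a fold of 2 (4.49%) and with the gate over 5 genes (6.66%). It became 4 there by TMM scaling (13.3%) and among T cells with a TRB contig (21%). Beyond what the alternatives' construction shows, the cause was not tested. Scaling by TMM shifted ratios by -0.09 to 0.07. No paired analysis was possible because each genotype was 1 library. Median depths of 1431 and 1229 UMIs in other T cells limit low genes such as *Itgae* and *Itga1*.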
